A study of Mus musculus with 57 samples.

Results

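The genes described here build, coat, fill or empty the lipid droplet, and were measured in 57 RNA sequencing libraries from mouse liver and blood. They are Plin2, Plin3, Hilpda, Dgat1, Dgat2, Pnpla2, G0s2, Mgll, Lpl and Fabp5, 10 of the 24941 genes with a symbol in the deposited tables. Each was taken by its symbol, and where several transcripts carried that symbol the transcript with the highest total count over the 57 libraries was used.

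The study set liver macrophages of mice fed a diet that causes nonalcoholic steatohepatitis (NASH, a fatty and inflamed liver) against those of mice on a control diet. In the population set, C57BL/6J mice gave 2 libraries each of 6 sorted populations. Kupffer cells, the macrophages that reside in liver sinusoids, were sorted as F4/80-high and Tim4-positive cells from control diet and from NASH diet mice. Kupffer-niche recruited macrophages (KN-RM) were F4/80-high but Tim4-negative. Recruited macrophages outside the niche were CD11b-high and either Ly6C-high or Ly6C-low, and Ly6C-high monocytes came from blood. The last 4 populations all came from NASH diet mice. In the time course, Tim4-positive Kupffer cells of C57BL/6J mice were taken on control diet (week 0, n = 3) or on NASH diet for 1 week (n = 2), 4 weeks (n = 2), 10 weeks (n = 3), 20 weeks (n = 3) or 30 weeks (n = 4). The LXR set held KN-RM from mice whose LXR alpha and beta genes are floxed, after 20 weeks of NASH diet. Of these, 3 libraries are labelled Cre positive for Clec4f-Cre and 3 Cre-negative. All carried the floxed alleles, and Clec4f is a lectin gene of Kupffer cells, so the driver is meant for cells of the Kupffer niche. Whole liver came from mice labelled Clec4f-Cre DTR positive (n = 12) or negative (n = 10), where DTR is the receptor for diphtheria toxin, after 4 weeks of a choline-deficient, amino acid-defined high-fat diet (CDAHFD). The labels do not say whether toxin was given, nor the ages of the mice. Replicates carry numbers but are not stated to be separate animals, so the p-values speak only of the spread among these libraries, which may be technical.

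Cells store surplus fatty acids as triglyceride in lipid droplets. The last step of triglyceride synthesis is run by the acyltransferases Dgat1 and Dgat2, which belong to unrelated protein families. Perilipins such as Plin2 and Plin3 coat the droplet. Pnpla2 (adipose triglyceride lipase) removes the first fatty acid from triglyceride and Mgll (monoglyceride lipase) releases the last, while the small proteins G0s2 and Hilpda bind Pnpla2 and inhibit it. Lpl is secreted and frees fatty acids from circulating lipoproteins, and Fabp5 carries fatty acids inside the cell. Macrophages of a fatty liver take up lipid and can become droplet-laden.

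The deposited coordinates (mm10, the UCSC name of GRCm38) place the coat genes Plin2 (NM_007408) at chr4:86656565-86670059 and Plin3 (NM_025836) at chr17:56278962-56290511, both on the minus strand. The inhibitors lie at chr6:29272626-29275449, plus strand, for Hilpda (NM_023516) and chr1:193272160-193273188, minus strand, for G0s2 (NM_008059). Dgat1 (NM_010046) is at chr15:76502012-76511994 and Dgat2 (NM_026384) at chr7:99153663-99182713, both minus. The lipases are at chr7:141455188-141460743 for Pnpla2 (NM_001163689), chr6:88724412-88828360 for Mgll (NM_011844) and chr8:68880555-68906932 for Lpl (NM_008509), and Fabp5 (NM_010634) is at chr3:10012585-10016610, all 4 on the plus strand. Counts are over the exons of each transcript. Fabp5 has an annotated pseudogene copy and the span of Mgll overlaps the annotated gene Gm26588. How reads of several matches or of either strand were counted is not given in the sources used here, so both genes are uncertain in this respect.

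RefSeq promoter sequences of build GRCm38.p6 were matched by symbol for 6 of the 10 genes (Plin2, Plin3, Hilpda, Pnpla2, G0s2 and Mgll), in 8 windows of the 250 bases before a transcript start. They were searched on both strands for ACGTG and GCGTG, the cores of hypoxia response elements, since Hilpda (hypoxia inducible lipid droplet associated) is named for its response to low oxygen. ACGTG was held by 16.6% and GCGTG by 28.1% of all 32817 such windows. The stretches below are shown because Plin2 and Hilpda were the coat gene and the inhibitor that changed at the most times of the time course. They are printed 5′ to 3′ on the strand of the gene, with the core in capitals (CACGC is GCGTG read on the other strand).
Hilpda, chr6:29272571-29272600, plus strand: gatggccagcggACGTGccccagggcgagc
Hilpda, chr6:29272503-29272532, plus strand: caaccgcgagccGCGTGctttccgtgactc
Hilpda, chr6:29272596-29272625, plus strand: cgagctcgtgcaggttcggtacGCGTGcgc
Plin2, chr4:86670128-86670157, minus strand: ggttggggttccCACGCcctcatccccaat
The ACGTG core of Hilpda starts 43 bases before the transcript start used here, and the GCGTG cores 111 and 8 bases before it. The cores at 43 and 111 lie inside an annotated exon of a second Hilpda transcript that starts upstream, and the core at 8 lies in no annotated exon of GENCODE M21. The window before that upstream start held neither core. In Plin2 the core on the opposite strand spans the bases 86 to 82 before the start. G0s2 held GCGTG 142 bases before its start, and the Mgll windows held both cores and the E-box CACGTG (6.02% of all windows), all in exons of Mgll or of the neighbour Gm26588. The windows of Plin3 and Pnpla2 held none of these. No window of the 6 genes held a CLEAR element (0.241% of all windows) or a pair of AGGTCA sites 1 base (0.0335%) or 4 bases (0.0152%) apart. These matches are letters in a window and no measure of binding.

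Total counts per library, in units of 1000000 counts, ran from 12.4 to 22.7 in the population set, 10.48 to 27.0 in the time course, 2.32 to 5.09 in the LXR set and 5.39 to 9.94 in whole liver. Levels were scaled within each of these 4 sets, so that levels set side by side across sets carry that limit. Summed over 9 Kupffer cell markers, the level was 22770 to 37510 counts per 1000000 (CPM, with TMM scaling) in the healthy, NASH diet and week 0 Kupffer cells, 12400 to 14720 in KN-RM, 226 to 472 in the Ly6C-low and Ly6C-high recruited macrophages and 5.62 to 8.87 in blood monocytes. The KN-RM of the LXR set held 1338 to 9952 CPM of them. All liver-derived libraries also held hepatocyte RNA, with albumin (Alb) at 27.2 to 2515 CPM in the sorted liver cells, while Alb was at 0 in both blood libraries. Of the 5 adipocyte genes, Lep was at 0 in every sorted population of the population set and Adipoq in 3 of the 6. Their summed level was 1.42 to 2.02 CPM in healthy and 5.97 to 8.72 CPM in NASH diet Kupffer cells. It was 7.02 to 7.34 CPM in KN-RM, 6.95 to 7.81 CPM in Ly6C-low and 14.3 to 17.2 CPM in Ly6C-high macrophages, and 3.18 to 4.07 CPM in blood. In these bulk samples fewer cells of a type and less RNA per cell cannot be told apart.

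Levels between the genes were compared in transcripts per 1000000 (TPM), which are per length. In sorted Kupffer cells and KN-RM of every set Lpl, Plin2 and Pnpla2 had the highest mean TPM of the 10 genes, in that order. In NASH diet Kupffer cells mean TPM was 1028 ± 89.0 for Lpl, 437 ± 18.5 for Plin2, 97.0 ± 1.89 for Pnpla2 and 40.5 ± 4.15 for Plin3 (SD, n = 2). Their other members lay between 1.97 TPM for Dgat2 and 23.6 TPM for Fabp5. In blood monocytes the order opened with Plin2 at 272 ± 48.1 TPM, Pnpla2 at 63.6 ± 7.06 and Lpl at 44.2 ± 19.3 (SD, n = 2). The highest Lpl library of blood, at 57.9 TPM, was just under the lowest Pnpla2 library, at 58.6 TPM. Whole liver had yet another order, with Plin2 at 1308 ± 268 TPM in DTR-negative livers, followed by Dgat2 at 288.5 ± 27.7, G0s2 at 163 ± 42.6 and Mgll at 155 ± 27.5 (SD, n = 10). G0s2 and Mgll, which reached at most 8.36 and 17.1 TPM in any sorted library, were at 104 TPM or more in every whole liver.

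In the population set Plin2, Plin3, Lpl and Fabp5 were higher in Kupffer cells of NASH diet than of control diet mice. A gene is called here when its adjusted p was under 0.05 (edgeR's quasi-likelihood test, two-sided, adjusted over all genes of the fit by Benjamini-Hochberg), and "rose", "fell", "higher" and "lower" refer to such calls. Of the 10 genes 5 were called, 4 higher and 1 lower, beside 20.7% of all genes tested. The median log2 difference was 0.05 over the 10 genes and 0.00 over all genes.

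Fabp5 was at 1.01 and 0.224 CPM in healthy Kupffer cells and at 12.2 and 28.0 CPM in NASH diet Kupffer cells. The groups did not overlap, and the difference was 4.96 on the log2 scale (SE 0.61, adjusted p = 0.00034). Fabp5 was called without each single library as well, with a difference between 4.21 (without NASH diet replicate 2) and 6.45 (without healthy replicate 1). Lpl was at 1353 and 844 CPM in healthy and at 3398 and 4014 CPM in NASH diet Kupffer cells. Lpl thus rose by 1.75 on the log2 scale (SE 0.31, adjusted p = 0.0036), with both NASH diet libraries above both controls.

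Plin2 was at 382.5 and 432 CPM in healthy Kupffer cells and at 737.5 and 726 CPM after the diet. This coat protein gene was higher by 0.84 (SE 0.27, adjusted p = 0.044), close to the threshold, and without any single library of the 4 its adjusted p was 0.12 to 0.16. Plin3 was at 47.1 and 44.8 CPM in healthy and at 70.5 and 85.2 CPM in NASH diet Kupffer cells. Plin3 was higher by 0.76 (SE 0.14, adjusted p = 0.0037), and without NASH diet replicate 2 the adjusted p was 0.066. Healthy and NASH diet libraries were apart for both perilipins.

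Among the lipases, Pnpla2 was at 263 and 580 CPM in healthy and at 225 and 229 CPM in NASH diet Kupffer cells. The call of a decrease (-0.89, SE 0.27, adjusted p = 0.040) rested on healthy replicate 2, since without that library the log2 difference was -0.22 (adjusted p = 0.43). Without NASH diet replicate 1 or 2 it was -0.88 and -0.93 (adjusted p = 0.14 and 0.15). Mgll was at 11.99 and 12.5 CPM against 6.03 and 9.53 CPM (-0.65, adjusted p = 0.14).

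The inhibitor Hilpda was at 21.5 and 20.9 CPM in healthy and at 17.4 and 7.32 CPM in NASH diet Kupffer cells (-0.78, adjusted p = 0.18), and G0s2 was between 1.89 and 2.54 CPM in all 4 libraries. Without NASH diet replicate 1 the Hilpda difference was -1.53 (adjusted p = 0.039). With the replicate number as a block Hilpda (-0.88, adjusted p = 0.037) and Mgll (-0.69, adjusted p = 0.040) were called as well. Dgat1 was at 17.3 to 20.5 CPM and Dgat2 at 2.53 to 5.40 CPM, with the diet groups overlapping for both. Sinusoidal endothelial markers moved with this comparison, 8 of 10 lower, from a summed 2973 and 3000 CPM to 1733 and 1833 CPM, and 4 of 9 Kupffer cell markers were lower. Hepatocyte markers were lower in 3 of 10, from summed levels of 657.5 and 1009 CPM to 138 and 431 CPM. The summed level of T and NK cell markers went from 7.70 and 8.21 CPM to 24.4 and 35.8 CPM, with 5 of 7 higher, and 2 of 8 stellate cell markers were higher. The part of any of them in these differences was not tested.

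**Figure D1:**
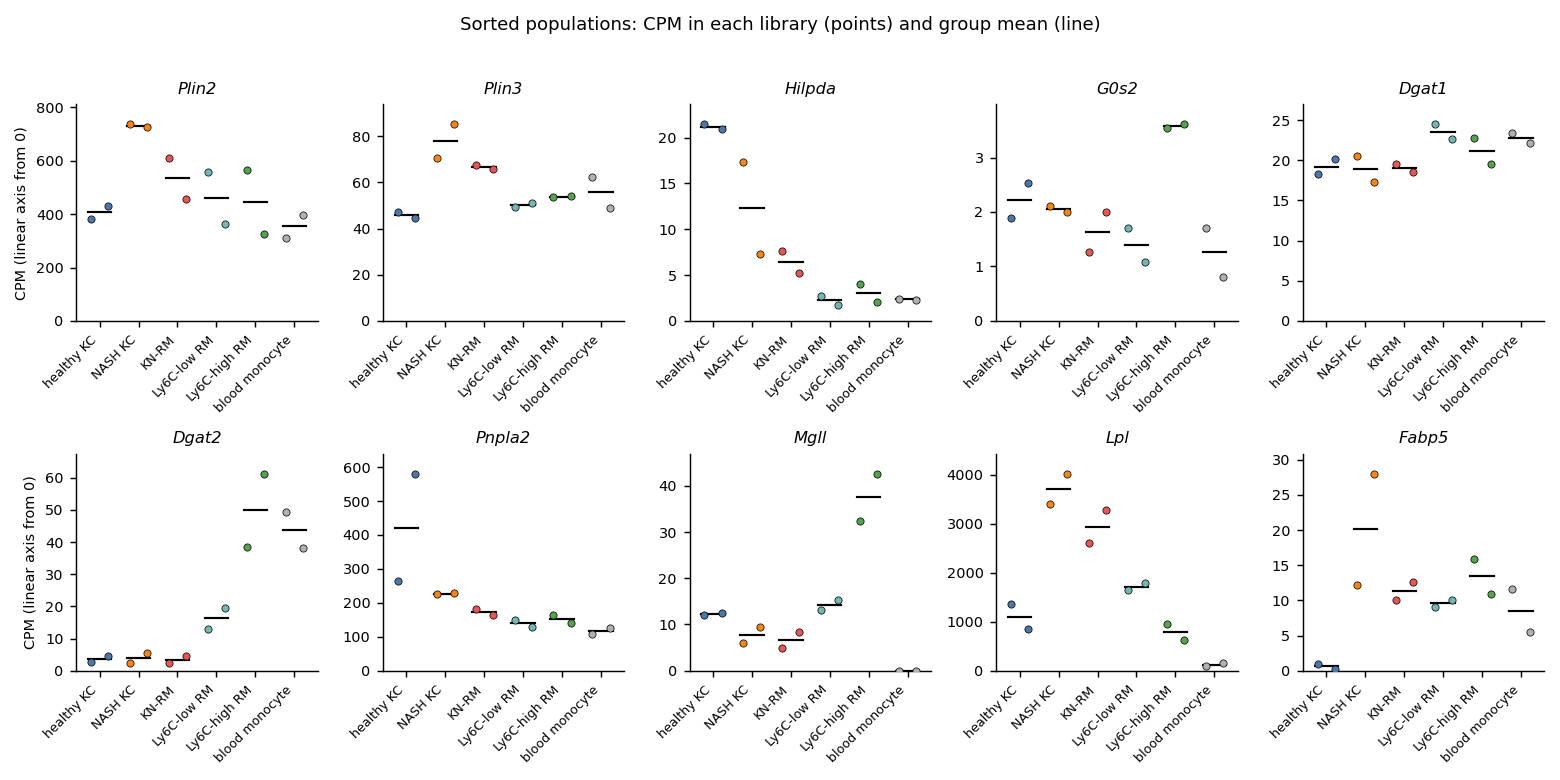
CPM of each gene (linear axis from 0) in the 12 libraries of the population set. Points are libraries and lines are group means (n = 2). Lpl is at 3398 and 4014 CPM in NASH diet Kupffer cells (NASH KC) and at 86.0 and 162 CPM in blood monocytes, while Dgat2 is at 38.3 CPM or more in blood monocytes and Ly6C-high recruited macrophages (RM) and at 5.40 CPM or less in Kupffer cells and KN-RM.

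KN-RM, the recruited macrophages of the Kupffer niche, differed from NASH diet Kupffer cells in none of the 10 genes, and 0.534% of all genes were called. At an unadjusted p under 0.05 there was 1 of the 10 (edgeR's quasi-likelihood test), Hilpda at 7.61 and 5.22 CPM in KN-RM (-0.93, p = 0.039, adjusted p = 0.50), beside 1311 of all 14407 genes, and DESeq2 called 0 of the 10. These p-values do not show that the populations are alike. Plin2 at 612 and 457 CPM, Pnpla2 at 183 and 165 CPM, Plin3 at 67.6 and 65.9 CPM and Lpl at 2597 and 3266 CPM all lay below both NASH diet Kupffer cell libraries. Their log2 differences were -0.45 (SE 0.26), -0.38 (SE 0.27), -0.22 (SE 0.14) and -0.34 (SE 0.31). The share of all genes separated in this way was not counted, and groups of 2 libraries can separate without a difference.

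Recruited macrophages outside the niche had another pattern. The Ly6C-low cells differed from KN-RM in 4 of the 10 genes, 2 higher and 2 lower, beside 33.3% of all genes. The synthesis gene Dgat2 was at 13.1 and 19.5 CPM in Ly6C-low macrophages and at 2.26 and 4.61 CPM in KN-RM. It was thus higher outside the niche by 2.25 (SE 0.42, adjusted p = 0.0020), without overlap. Mgll was at 13.2 and 15.4 CPM against 4.91 and 8.36 CPM, higher by 1.11 (SE 0.29, adjusted p = 0.014), and was not called without KN-RM replicate 1 (0.79, adjusted p = 0.11) or Ly6C-low replicate 2 (1.00, adjusted p = 0.065).

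The lower genes were Hilpda and Plin3. Hilpda was at 2.76 and 1.78 CPM in Ly6C-low macrophages, below both KN-RM libraries (-1.48, SE 0.43, adjusted p = 0.021), and lost the call without KN-RM replicate 1 (-1.15, adjusted p = 0.14) or Ly6C-low replicate 2 (-1.22, adjusted p = 0.12). Plin3 was at 49.3 and 51.1 CPM (-0.41, SE 0.14, adjusted p = 0.037), and its call ended without any single library of the 4 (adjusted p = 0.10 to 0.18) and with DESeq2 (adjusted p = 0.068). On the deposited TPM scale, where the median of all genes moved up by 0.24, the Plin3 difference was -0.07 (limma, adjusted p = 0.66). Lpl was at 1640 and 1779 CPM, below both KN-RM libraries, at -0.78 (adjusted p = 0.073). Kupffer cell markers were lower in 6 of 9 and dendritic cell markers higher in 5 of 7 in this comparison, and sinusoidal endothelial markers were higher in 6 of 10 and lower in 2. Their part in these differences was not tested.

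Ly6C-low and Ly6C-high recruited macrophages differed in 4 of the 10 genes, 1 higher and 3 lower in Ly6C-low cells, beside 25.7% of all genes. Lpl was at 961 and 618 CPM in Ly6C-high cells and higher in the Ly6C-low cells by 1.11 (SE 0.31, adjusted p = 0.022). It was not called without Ly6C-high replicate 2 (0.83, adjusted p = 0.18) or without Ly6C-low replicate 1 (1.18, adjusted p = 0.075) or 2 (1.06, adjusted p = 0.070). Dgat2, at 38.5 and 61.3 CPM in Ly6C-high macrophages, was lower in Ly6C-low cells by 1.62 on the log2 scale (log2 difference -1.62, SE 0.37, adjusted p = 0.0096), and was not called without Ly6C-high replicate 2 (adjusted p = 0.088) or Ly6C-low replicate 1 (adjusted p = 0.092).

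G0s2 was at 3.54 and 3.61 CPM in Ly6C-high and at 1.71 and 1.08 CPM in Ly6C-low macrophages (-1.34, SE 0.43, adjusted p = 0.039), with an adjusted p of 0.076 to 0.16 without any single library of the 4. Mgll was at 32.4 and 42.6 CPM in Ly6C-high cells (-1.40, SE 0.28, adjusted p = 0.0054), and its adjusted p without Ly6C-low replicate 1 was 0.054. Hepatocyte markers were lower in 10 of 10 and endothelial markers in 7 of 10 in the Ly6C-low cells, from summed hepatocyte levels of 1416 and 3873 CPM to 145 and 343 CPM. Of the dendritic cell markers 5 of 7 were higher, their sum going from 89.1 and 109 CPM to 384.5 and 402 CPM, and monocyte markers lower in 7 of 7 and neutrophil markers in 5 of 7. The part of these cell types in the 4 calls was not tested.

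Blood monocytes, the circulating cells from which recruited macrophages arise, had the least Lpl of the 6 populations. Lpl was at 86.0 and 162 CPM in blood, at 961 and 618 CPM in Ly6C-high macrophages and at 2597 and 3266 CPM in KN-RM, with no overlap between neighbours in this order. Against blood, Lpl was higher by 2.67 (SE 0.33, adjusted p = 7.4e-05) in Ly6C-high macrophages and by 4.57 (SE 0.36, adjusted p = 9.5e-07) in KN-RM. These comparisons share the blood libraries.

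Ly6C-high macrophages differed from blood in 3 of the 10 genes, all higher, beside 48.6% of all genes. In addition to Lpl these were Mgll and G0s2. Mgll had 0 counts in both blood libraries, and against a floor of 3 counts over the group it was at least 417-fold higher in Ly6C-high macrophages (at least 154-fold or 264-fold without blood replicate 1 or 2). G0s2 was at 1.71 and 0.814 CPM in blood (difference 1.46, SE 0.43, adjusted p = 0.017), and was not called without blood replicate 2 (1.05, adjusted p = 0.10) or without Ly6C-high replicate 1 (adjusted p = 0.055) or 2 (adjusted p = 0.058). Without blood replicate 1 the G0s2 difference was 2.12. Endothelial markers were higher in 10 of 10 and hepatocyte markers in 10 of 10, and 5 of the endothelial and 8 of the hepatocyte markers were at 0 in blood.

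KN-RM differed from blood monocytes in 4 of the 10 genes, 3 higher and 1 lower, beside 60.4% of all genes. Dgat2 was at 49.3 and 38.3 CPM in blood and lower in KN-RM by 3.69 on the log2 scale (log2 difference -3.69, SE 0.43, adjusted p = 2.4e-05). Mgll was at least 73.8-fold higher in KN-RM on the same floor (at least 27.2-fold or 46.7-fold without blood replicate 1 or 2). Hilpda was at 2.42 and 2.28 CPM in blood (difference 1.45, SE 0.43, adjusted p = 0.014), with an adjusted p of 0.064 and 0.065 without blood replicate 1 and 2 and 0.082 without KN-RM replicate 1. Plin2 at 311 and 398.5 CPM, Plin3 at 62.2 and 49.0 CPM, Dgat1 at 23.4 and 22.2 CPM, Pnpla2 at 107 and 125 CPM and Fabp5 at 11.6 and 5.45 CPM in blood were not called against either liver population. Without blood replicate 1 Plin3 was called in KN-RM (0.45, adjusted p = 0.026). In KN-RM against blood, hepatocyte and endothelial markers were higher in 10 of 10 each and stellate cell markers in 8 of 8, while monocyte markers were lower in 7 of 7. Their part in the 4 calls was not tested.

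**Figure D2:**
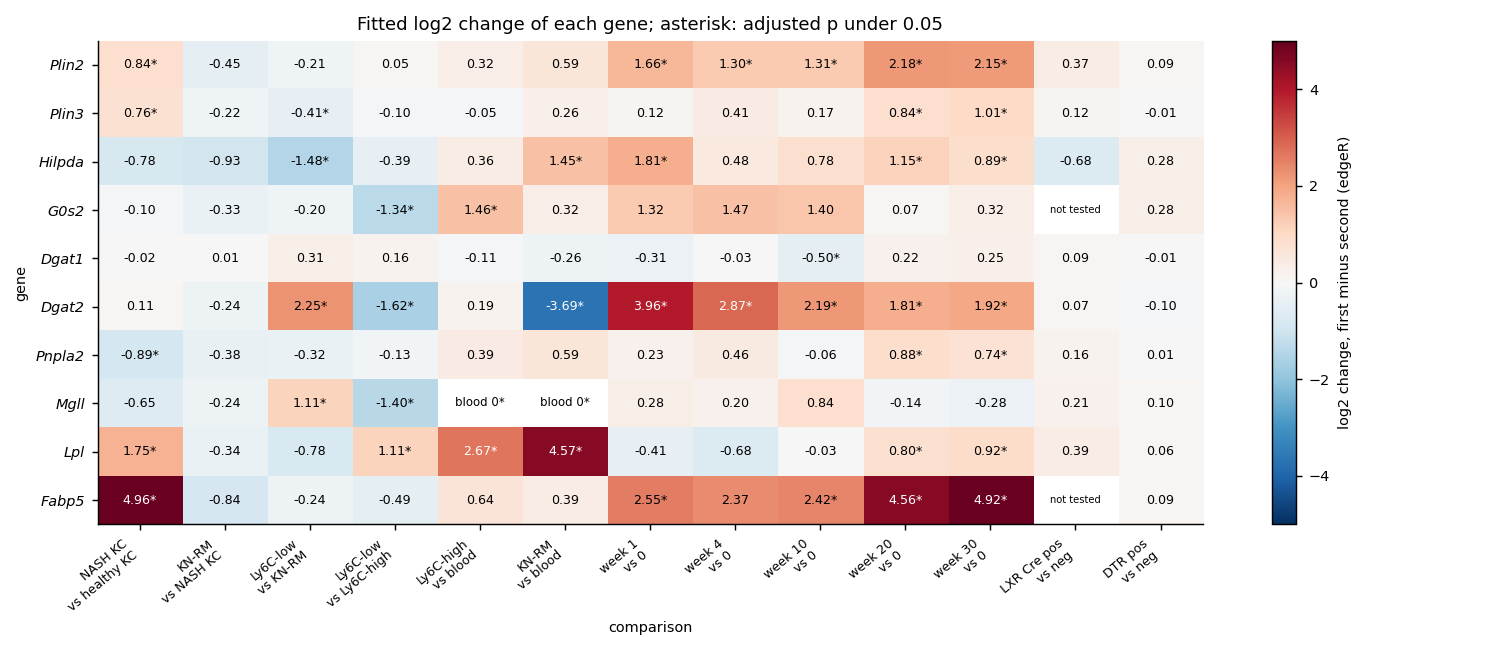
Fitted log2 change of each gene (rows) in 13 comparisons (columns, first group minus second), with asterisks for adjusted p under 0.05 in edgeR's quasi-likelihood test. Mgll has no value against blood, where its counts are 0. Fabp5 has the largest called values, 4.96 in NASH diet Kupffer cells (NASH KC) and 4.92 at week 30, and the columns of the LXR set and whole liver hold no asterisk.

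Dgat2 is given here beside albumin, since hepatocytes express it too. In week 0 Kupffer cells Dgat2 was at 1.76, 0.761 and 1.04 CPM with Alb at 103, 48.1 and 27.2 CPM. At week 1 Dgat2 was at 19.9 and 17.7 CPM with Alb at 2096 and 1741 CPM. In the population set Alb was at 431.5 and 584.5 CPM in healthy and at 78.8 and 266 CPM in NASH diet Kupffer cells, while Dgat2 was at 2.78 and 4.70 against 2.53 and 5.40 CPM. Blood monocytes held 49.3 and 38.3 CPM of Dgat2 with no Alb count. Per 1000 Alb counts, Dgat2 had 15.8 to 38.2 counts at week 0, 9.48 to 10.2 at week 1, 8.22 to 10.46 at week 4, 4.59 to 7.25 at week 10, 10.52 to 26.9 at week 20 and 11.7 to 24.9 at week 30. The ratio was 6.44 to 8.04 in healthy and 20.3 to 32.1 in NASH diet Kupffer cells, 18.9 to 39.4 in KN-RM, 87.2 to 162 in Ly6C-low and 24.4 to 45.1 in Ly6C-high macrophages. In the 22 whole livers, of mice on another diet, it was 3.72 to 12.3. The part of hepatocyte RNA in the Dgat2 differences was not tested.

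**Figure D3:**
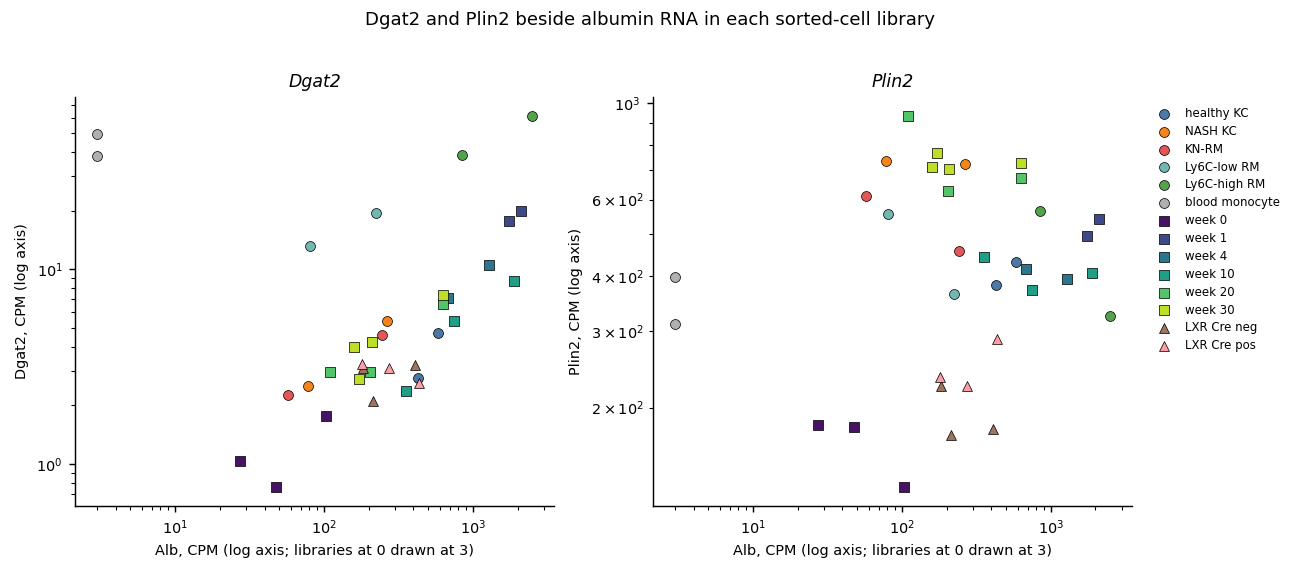
Dgat2 (left) and Plin2 (right) against Alb in each of the 35 sorted-cell libraries, in CPM on log axes. Points are libraries, with shapes for the 3 sorted-cell sets, and the blood libraries with 0 Alb are drawn at 3. Dgat2 lies at 19.9 and 17.7 CPM in the week 1 libraries with Alb at 2096 and 1741 CPM, and at 49.3 and 38.3 CPM in blood monocytes.

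Over the time course the coat gene Plin2 was higher than at week 0 at each of the 5 times. Plin2 was at 131.5, 181 and 182 CPM at week 0, 542 and 496 at week 1, 394 and 415 at week 4, and 408, 373 and 443 at week 10. At week 20 it was at 628.5, 674 and 933 CPM, and at week 30 at 714, 730, 767 and 706 CPM. Every diet library was above every week 0 library. The log2 differences of Plin2 were 1.66 (SE 0.17), 1.30 (SE 0.17), 1.31 (SE 0.15), 2.18 (SE 0.16) and 2.15 (SE 0.15), with adjusted p-values of 1.4e-05, 0.00033, 8.5e-05, 1.7e-07 and 8.5e-08. All 5 comparisons share the week 0 libraries.

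At week 1, 4 of the 10 genes were called, all higher, beside 16% of all genes. They were Plin2, Dgat2, Fabp5 and Hilpda. Dgat2 was higher by 3.96 (SE 0.54, adjusted p = 0.00015) than at week 0. Fabp5 was at 0.723, 0.703 and 0.405 CPM at week 0 and at 3.75 and 3.54 CPM at week 1, higher by 2.55 (SE 0.69, adjusted p = 0.019), with an adjusted p of 0.065, 0.082 and 0.063 without week 0 replicate 3 and without week 1 replicate 1 or 2. Hilpda was at 7.09, 6.44 and 5.72 CPM at week 0 and at 34.2 and 10.9 CPM at week 1. The Hilpda call (1.81, SE 0.37, adjusted p = 0.0035) rested on week 1 replicate 1, without which it was 0.74 (adjusted p = 0.24), and without replicate 2 it was 2.40. Hepatocyte markers were higher in 10 of 10 at week 1, from summed levels of 48.2 to 143 CPM to 3249 and 5110 CPM, and their part in these 4 calls was not tested.

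At week 4, 2 of the 10 genes were called, both higher, beside 8.54% of all genes. These were Plin2 and Dgat2, the latter at 10.5 and 7.11 CPM (2.87, SE 0.54, adjusted p = 0.0032). Fabp5 at 2.51 and 3.89 CPM was above every week 0 library and not called (2.37, adjusted p = 0.052), while DESeq2 called it (adjusted p = 0.0052). At week 10, 4 were called, 3 higher and 1 lower, beside 19.1% of all genes. Dgat2 was at 8.71, 5.45 and 2.36 CPM, higher by 2.19 (SE 0.50, adjusted p = 0.0072). Fabp5 was at 3.10, 6.35 and 0.605 CPM, so that its lowest library was within the week 0 range (2.42, SE 0.65, adjusted p = 0.017), and it was not called without week 10 replicate 2 (1.57, adjusted p = 0.11) or without week 0 replicate 2 (adjusted p = 0.051) or 3 (adjusted p = 0.066). Dgat1 was at 12.1, 11.6 and 10.9 CPM at week 10 against 15.2, 16.5 and 17.1 CPM at week 0 (-0.50, SE 0.15, adjusted p = 0.033). Without each single library of the 6 other than week 0 replicate 1 the Dgat1 adjusted p was 0.053 to 0.099. Hepatocyte markers were higher in 9 of 10 at weeks 4 and 10.

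At week 20, 7 of the 10 genes were called, all higher, beside 34.7% of all genes, and at week 30 again 7, all higher, beside 30.5%. At both times these were Plin2, Plin3, Hilpda, Dgat2, Pnpla2, Lpl and Fabp5, and Dgat1, G0s2 and Mgll were not called. Fabp5 was at 13.9, 6.62 and 23.8 CPM at week 20 and at 24.8, 12.6, 16.6 and 21.3 CPM at week 30, each above every earlier library, of which week 10 replicate 2 came closest at 6.35 CPM. The Fabp5 differences from week 0 were 4.56 (SE 0.66, adjusted p = 9.3e-05) and 4.92 (SE 0.65, adjusted p = 3.8e-05).

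Plin3 was at 37.4, 43.7 and 41.7 CPM at week 0, at 69.3, 68.1 and 82.2 CPM at week 20 and between 80.9 and 83.0 CPM in the 4 libraries of week 30. Both late groups were above all earlier libraries, whose highest Plin3 value was 55.2 CPM at week 4. Its differences were 0.84 (SE 0.13, adjusted p = 0.00016) and 1.01 (SE 0.12, adjusted p = 1.9e-05). Lpl was at 3003, 1692 and 1713 CPM at week 0, at 4307, 2566 and 4295 CPM at week 20 and at 4805, 3615, 3900 and 3888 CPM at week 30. Week 0 replicate 1 lay above the lowest week 20 library but below all of week 30. The week 30 difference of Lpl was 0.92 (SE 0.22, adjusted p = 0.0051). At week 20 it was 0.80 (SE 0.23, adjusted p = 0.015), with an adjusted p of 0.053 to 0.070 without week 0 replicate 2 or 3 or week 20 replicate 1 or 3 and of 0.10 by limma on TPM.

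The lipase gene Pnpla2 was at 108, 143 and 171 CPM at week 0, at 204, 368 and 202 CPM at week 20 and at 181, 296, 252 and 207 CPM at week 30. The late libraries were all above week 0, by 0.88 (SE 0.27, adjusted p = 0.020) and 0.74 (SE 0.26, adjusted p = 0.039). Without week 20 replicate 2 the Pnpla2 difference was 0.53 (adjusted p = 0.15), and without week 0 replicate 1 or 2 it was 0.72 and 0.89 (adjusted p = 0.080 and 0.051). At week 30 the Pnpla2 call ended without week 0 replicate 1 or 2 (0.57 and 0.75) and without week 30 replicate 2 or 3 (0.61 and 0.70), at adjusted p-values of 0.075 to 0.16. Hilpda was at 11.9, 11.3 and 19.7 CPM at week 20 (1.15, SE 0.34, adjusted p = 0.017) and at 11.6, 13.8, 11.96 and 10.50 CPM at week 30 (0.89, SE 0.33, adjusted p = 0.047). Every late Hilpda library was above week 0, yet the week 20 call was lost without week 0 replicate 3 or week 20 replicate 3 (adjusted p = 0.059 and 0.081) and the week 30 call without any single library (adjusted p = 0.062 to 0.14).

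Dgat2 stood at 2.98, 6.62 and 2.96 CPM at week 20 (1.81, SE 0.50, adjusted p = 0.011) and at 3.98, 7.34, 2.74 and 4.22 CPM at week 30 (1.92, SE 0.48, adjusted p = 0.0062), under the week 1 level but above week 0. The week 20 call of Dgat2 was lost without replicate 2 of that time (1.30, adjusted p = 0.070). The libraries with the most Dgat2 at each time were those with the most Alb, at 629 CPM in week 20 replicate 2 and 628 CPM in week 30 replicate 2. At weeks 20 and 30, hepatocyte markers were higher in 6 of 10, endothelial markers lower in 7 and 8 of 10, and Kupffer cell markers lower in 8 and 6 of 9. Stellate cell markers were higher in 5 and 6 of 8, from summed levels of 31.7 to 61.9 CPM at week 0 to 85.0 to 290.1 CPM and 116 to 334 CPM. Their part in the 7 calls of each time was not tested. Mgll was at 8.69 to 17.1 CPM at weeks 20 and 30 and at 9.77 to 21.0 CPM at week 0. It was highest at week 10 (34.8, 22.4 and 16.8 CPM, difference 0.84, adjusted p = 0.070) and called there by DESeq2 (adjusted p = 0.045), without week 0 replicate 1 (1.29, adjusted p = 0.010) or without week 10 replicate 3 (1.06, adjusted p = 0.034). At that time the endothelial gene Ptprb was at 337, 341 and 190 CPM, against 429, 77.8 and 97.1 CPM at week 0. Of 10 endothelial markers 0 were called at week 10, with a summed level of 2736 to 2892 CPM against 2628 to 4012 CPM at week 0.

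**Figure D4:**
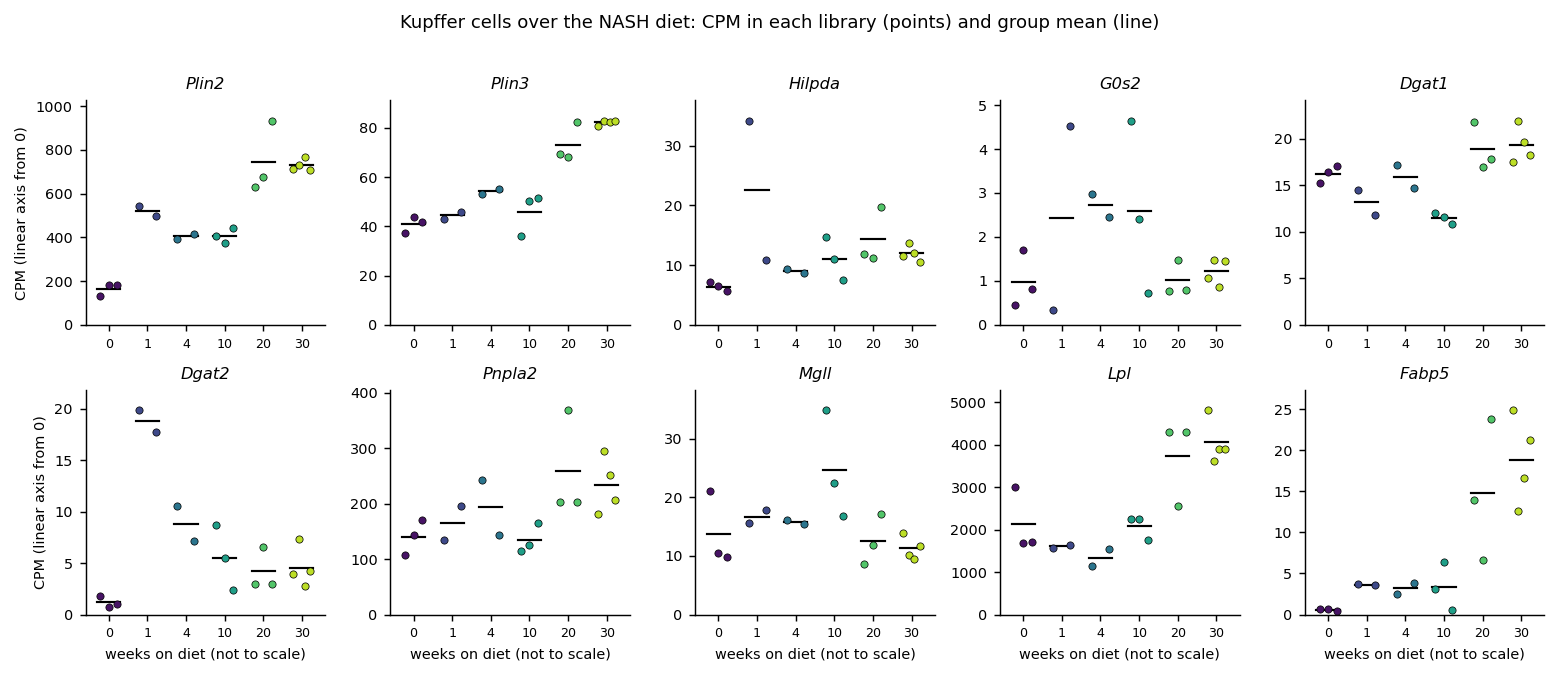
CPM of each gene (linear axis from 0) in Kupffer cells by weeks on the NASH diet, with libraries as points and group means as lines (n = 3, 2, 2, 3, 3 and 4). Plin2 is above 370 CPM in every diet library and at 182 CPM or below at week 0, and Dgat2 is highest at week 1 at 19.9 and 17.7 CPM.

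Among the 14 libraries on the diet, the slope of expression on log2 weeks was called for 4 of the 10 genes, 3 upward and 1 downward, beside 22.1% of all genes. Per doubling of the weeks Fabp5 rose by 0.54 (SE 0.14, adjusted p = 0.012), Lpl by 0.32 (SE 0.06, adjusted p = 0.0013) and Plin3 by 0.18 (SE 0.04, adjusted p = 0.0057) on the log2 scale. With the replicate number as a block the slope of Fabp5 was not called (0.49, adjusted p = 0.067). Dgat2 had a slope of -0.42 (SE 0.08, adjusted p = 0.0013). Hepatocyte markers had a downward slope in 10 of 10. The slope of Plin2 was 0.14 (adjusted p = 0.061) and became a call when fitted on weeks without logarithm (0.03 per week, adjusted p = 0.0054) or without week 10 replicate 2 (0.14, adjusted p = 0.048). That of G0s2 became one without week 1 replicate 1 (-0.44, adjusted p = 0.034).

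The diet effect on some of the genes differed between the population set and the time course. The labels give no diet duration for the population set. In a joint fit of the Kupffer cells of both sets, chosen after seeing the data, the effect in the population set minus that at week 20 was -1.32 (SE 0.24, adjusted p = 0.0089) for Plin2. It was -1.92 (SE 0.44, adjusted p = 0.017) for Hilpda and -1.75 (SE 0.47, adjusted p = 0.028) for Pnpla2, 3 of the 10 genes beside 14.7% of all genes. Against week 30 Plin2 alone of the 10 was called (-1.27, SE 0.24, adjusted p = 0.021), beside 2.29% of all genes, with Hilpda at -1.65 (adjusted p = 0.061) and Pnpla2 at -1.60 (adjusted p = 0.082). The controls of the sets stood apart. Healthy Kupffer cells of the population set had Plin2 at 382.5 and 432 CPM, Hilpda at 21.5 and 20.9 CPM and Pnpla2 at 263 and 580 CPM, above the highest week 0 values of 182, 7.09 and 171 CPM. The levels of NASH diet Kupffer cells (737.5 and 726 CPM of Plin2) were within those of weeks 20 and 30 for Plin2. Alb was at 431.5 and 584.5 CPM in the healthy libraries of the population set against 27.2 to 103 CPM at week 0, and its part in these differences was not tested.

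In the LXR set the targeted genes come before the 10. LXR alpha and LXR beta are sterol-sensing nuclear receptors, encoded by Nr1h3 and Nr1h2. Nr1h3 was at 247, 282 and 307 CPM in the Cre-negative libraries and at 187, 451 and 298.5 CPM in the libraries labelled Cre positive. Nr1h2 was at 51.1, 33.3 and 36.6 CPM against 61.1, 82.5 and 64.5 CPM (0.79, adjusted p = 0.26). Neither was lower in the libraries labelled Cre positive, and the counts are for whole transcripts and do not show the floxed part on its own. Of 6 LXR target genes Abcg1 (0.81, adjusted p = 0.14), Mylip (0.96, adjusted p = 0.077), Srebf1 (0.95, adjusted p = 0.16) and Lpcat3 (0.44, adjusted p = 0.68) had all 3 libraries labelled Cre positive above all 3 Cre-negative ones. Abca1 (0.01) and Pltp (1.04, adjusted p = 0.48) overlapped. None of the 6 was called. How many of all genes separate these groups was not counted, and groups of 3 libraries can separate without a difference. The counts thus do not show the loss of LXR that the Cre label implies, and cannot decide whether the labels hold. The direction between these groups is given by label only. Summed monocyte markers were at 204.8 to 264 CPM in the libraries labelled Cre positive and at 76.8 to 94.5 CPM in Cre-negative ones, with Ccr2 higher. Summed Kupffer cell markers were at 1338 to 9952 CPM against 2874 to 3640 CPM. The part of these cell types was not tested.

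None of the 8 genes tested there was called between the libraries labelled Cre positive and Cre-negative, beside 0.209% of all genes (24 by edgeR and 225 by DESeq2). At an unadjusted p under 0.05 there were 0 of the 8 and 947 of all 11480 genes, and DESeq2 called 0 of the 8. Fabp5 and G0s2 were too low to pass the filter, with G0s2 at 0 counts in 3 of the 6 libraries. Plin2 was at 173, 224.5 and 179 CPM in Cre-negative libraries and at 235, 287 and 225 CPM in those labelled Cre positive. All 3 of the latter were above the former, by a small margin at the boundary (0.37, SE 0.19, adjusted p = 0.71). Of the 10 genes 1, Plin2, was without overlap. The share of all genes without overlap was not counted, so this is no result about Plin2. Lpl ranged from 1082 to 6057 CPM in the libraries labelled Cre positive and from 1297 to 3565 CPM in Cre-negative ones (0.39, SE 0.55, adjusted p = 0.94). The SE for Hilpda was 0.70 and that for Dgat2 0.57, the 2 widest of the 8.

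In whole liver Clec4f was at 1.37 to 118 CPM in DTR-negative and at 3.37 to 140 CPM in DTR-positive livers, so that this check gene of Kupffer cells did not separate the labels (0.13, SE 0.61, adjusted p = 1.00). None of the 10 genes was called (edgeR's quasi-likelihood test), beside 0% of all 12682 genes tested, and at an unadjusted p under 0.05 there were 0 of the 10 and 477 of all genes. DESeq2 called 0 as well. Plin2 ran from 1407 to 2602 CPM with a median of 2062 in DTR-negative and from 1439 to 3558 CPM with a median of 1974 in DTR-positive livers (0.09, SE 0.13). Dgat2 ran from 374 to 660 CPM (median 548) and from 425 to 616 CPM (median 488). G0s2 ran from 69.0 to 195 CPM (median 109) and from 69.2 to 245 CPM (median 131). The DTR groups overlapped in all 10 genes.

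4 livers stood apart on the stellate cell gene Col1a1, at 46.6 to 65.4 CPM against 155 CPM or more in the other 18, namely DTR-negative replicate 2 and DTR-positive replicates 1, 2 and 7. Their Lpl was at 41.5, 56.3, 41.2 and 29.3 CPM against 135 to 405 CPM in the others. Their Fabp5 was at 1.77, 1.88, 2.11 and 2.47 CPM against 9.82 to 26.0 CPM. Lpl and Fabp5 thus separated the same 4 livers without overlap, while Plin2 did not. Alb separated them as well, at 115200 to 138300 CPM against 83010 CPM or less in the others. How many of all genes separate these livers was not counted. Without them, an alternative chosen after seeing the data, no gene of the 10 and 0 of all genes were called. The unadjusted p was then under 0.05 for Hilpda (0.42, adjusted p = 0.39) and Fabp5 (0.32, adjusted p = 0.41), and for 1549 of all genes.

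**Figure D5:**
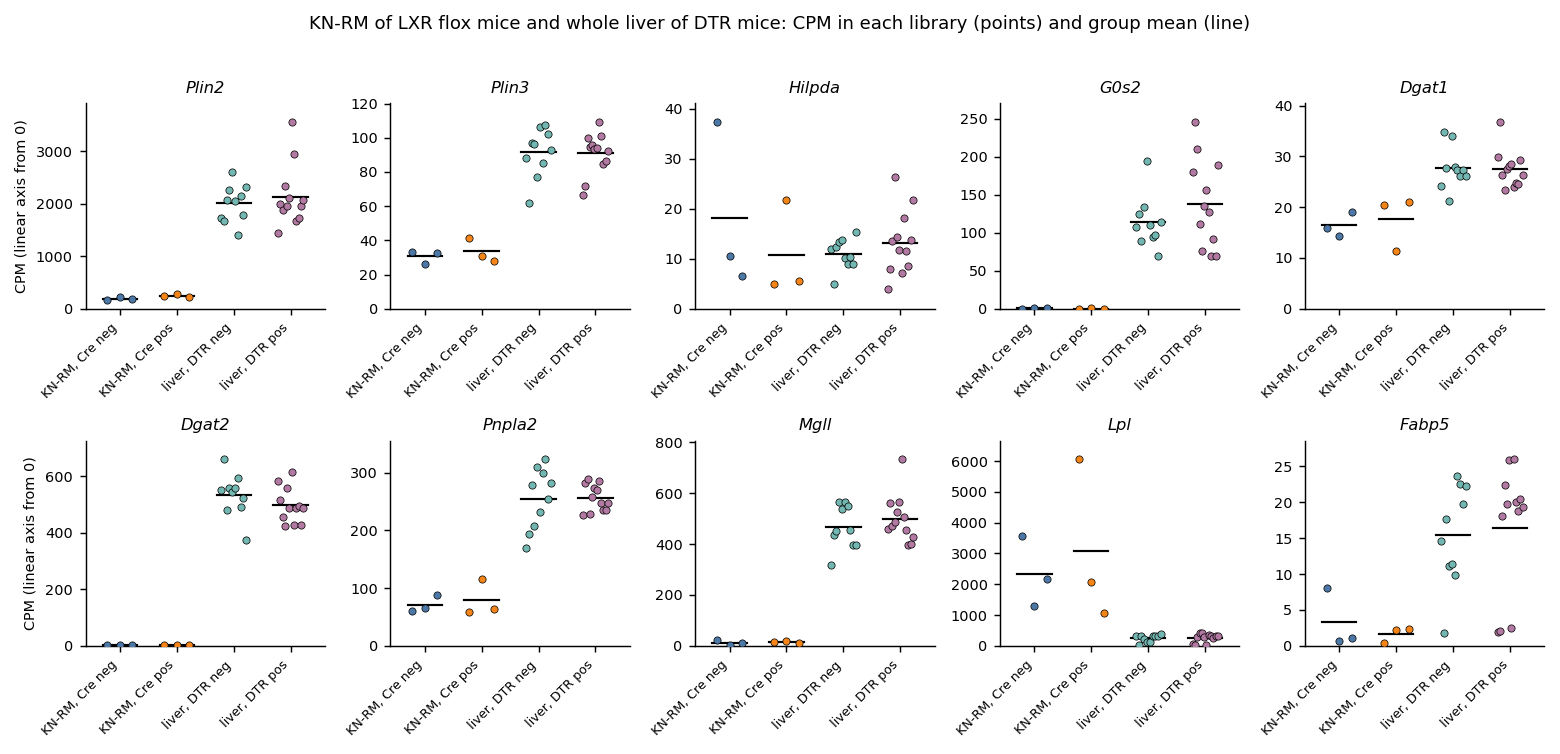
CPM of each gene (linear axis from 0) in KN-RM of LXR-floxed mice (n = 3 a group) and in whole liver (n = 10 DTR-negative, n = 12 DTR-positive). Points are libraries and lines are group means. The labelled groups overlap except for Plin2 in KN-RM, where the difference was not called. The 4 livers with Lpl at 56.3 CPM or less are also those with Fabp5 at 2.47 CPM or less.

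Other genes of lipid handling were taken from 6 lists chosen by function. In NASH diet against healthy Kupffer cells 14 of their 68 tested genes were called (20.6%), close to the 20.7% of all genes. There, of 13 tested genes of droplet coat and assembly 1 was higher (Fitm1) and none lower, and of 14 of triglyceride and sterol ester synthesis 2 were lower. These were Soat2 (-0.97, adjusted p = 0.025) and Acsl1 (-0.66, adjusted p = 0.012), which esterify cholesterol and activate fatty acids. Of 10 genes of lipid hydrolysis 2 were higher and 2 lower. The higher were Abhd12 at 605 ± 65.8 against 374 ± 44.4 CPM and Abhd5, the coactivator of Pnpla2, at 28.2 ± 1.38 against 20.8 ± 0.06 CPM (SD, n = 2). The lower were Pnpla3 (-2.81, adjusted p = 0.014) and Ddhd2 (-0.55, adjusted p = 0.043). Of 9 lipoprotein lipase partners and other lipases 1 was higher, Apoc2, the activator of lipoprotein lipase (1.04, adjusted p = 0.018).

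Of 10 genes of fatty acid uptake and binding 3 were higher in NASH diet Kupffer cells and none lower. The scavenger receptor gene Cd36 was at 675 ± 11.03 against 312 ± 138 CPM (SD, n = 2). Its log2 difference was 1.11 (adjusted p = 0.036). Fabp4 was higher by 2.18 (adjusted p = 0.0011), and Vldlr was at 0 counts in both healthy libraries. Of 12 transcription factors 2 were higher and 1 lower. Pparg, the receptor that drives fat storage genes, was higher by 0.76 (adjusted p = 0.017) and Srebf1 by 0.61 (adjusted p = 0.0053), and Rxra, the partner of Pparg, had a difference of -0.53 (adjusted p = 0.014). KN-RM against NASH diet Kupffer cells had 0 calls in all 6 lists.

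At week 30 against week 0, 31 of the 68 genes of the lists were called (45.6%), 27 higher and 4 lower, beside 30.5% of all genes and with 6 of 10 hepatocyte markers higher. Of the lists, 6 of 12 genes of droplet coat and assembly were higher and 1 lower, and of these Cidec, which was at 0 counts at week 0, Plin4 and Hsd17b13 had mean levels of 1.27, 1.15 and 2.03 CPM at week 30. The lower one was Rab18 (-0.85, adjusted p = 0.00042). In fatty acid uptake 6 of 9 were higher, with the largest changes in Slc27a2, Fabp2 and Slc27a1. Among the 6, Cd36, named after its values were seen, was at 1019 ± 88.8 CPM (SD, n = 4) against 308 ± 62.5 CPM (SD, n = 3). The transporter Slc27a1 was at 197 ± 28.5 against 30.8 ± 9.31 CPM. Slc27a2, a transporter of hepatocytes, was higher by 3.80 (adjusted p = 0.0034) with 6 of 10 hepatocyte markers. In lipid hydrolysis Abhd12 was higher by 1.23 (adjusted p = 3.8e-06) and Pnpla3 had a difference of -2.31 (adjusted p = 0.00041), 1 higher and 1 lower of 10. Of 15 synthesis genes 3 were higher and 1 lower, with Lpin1, a phosphatidate phosphatase, at 66.6 ± 6.82 (SD, n = 4) against 23.1 ± 1.37 CPM (SD, n = 3). The lower gene was Acsl5 (-0.42, adjusted p = 0.015). Among lipoprotein lipase partners and other lipases 6 of 10 were higher, led by Apoa5, Angptl4 and Apoc3, and 1 lower. Angptl4, an inhibitor of Lpl, was higher by 3.06 (adjusted p = 4.5e-05), and Gpihbp1, its anchor on endothelium, had a difference of -1.32 (adjusted p = 0.012). Of 12 transcription factors 5 were higher, led by Ppara. Pparg followed by 1.49 (adjusted p = 0.00019) and Srebf1 by 1.09 (adjusted p = 1.1e-05).

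In Ly6C-low macrophages against KN-RM, 19 of the 68 genes of the lists were called (27.9%), beside 33.3% of all genes. There, 0 of 13 coat and assembly genes were called, 3 of 10 hydrolysis genes were higher (Abhd6, Ddhd2 and Lipe) and 1 lower (Abhd12), and 3 of 12 transcription factors were higher (Foxo1, Ppard and Tfeb) and 3 lower (Rxra, Nr1h3 and Srebf1). Synthesis genes had 1 higher (Acsl1) and 2 lower (Gpat3 and Agpat3) of 14, and uptake genes 1 higher (Vldlr) and 1 lower (Fabp7) of 10. Lipoprotein lipase partners and other lipases had 2 higher (Lipg and Gpihbp1) and 2 lower (Angptl4 and Apoc2) of 9. In Ly6C-low against Ly6C-high macrophages 36 of the 68 were called (52.9%), beside 25.7% of all genes. Of them, 9 of 13 coat and assembly genes were lower, and 7 of 9 lipoprotein lipase partners and other lipases. None of either list was higher, beside the 10 of 10 lower hepatocyte markers. Uptake genes had 1 higher (Cd36) and 5 lower of 10. At week 1, 28 of the 68 were called (41.2%), beside 16% of all genes. The coat and assembly list had 6 of 12 higher and the uptake list 4 of 9, led by Cidec and Slc27a2, with 10 of 10 hepatocyte markers higher. The part of hepatocyte RNA in these list counts was not tested. Between the LXR groups 2 of 52 were called (3.85%), beside 0.209% of all genes. They were Acsl3 of the synthesis list and Lipg of the list of lipoprotein lipase partners and other lipases, both higher in the libraries labelled Cre positive. Whole liver had 0 calls in all 6 lists.

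The levels of the 10 genes were compared with those of 16000 genes by Pearson's r of log2 CPM, as a description. This was done across the 35 sorted-cell libraries, which came in 3 sets. Those from liver shared hepatocyte and endothelial RNA, while in blood 8 of 10 hepatocyte and 5 of 10 endothelial markers were at 0. The gene most like Plin2 was Wsb2 (r = 0.85), followed by Hadha (0.84) and Srebf1 (0.83). The genes most like Plin3 were Gusb (0.94), Cotl1 and Lgals3, and those most like Lpl were Lrp12 (0.93), Basp1 and Cdk18. Dgat2 was most like Hp (0.92), F10 and Haao. The libraries with the most Dgat2 include blood monocytes, at 49.3 and 38.3 CPM, where Alb was at 0. Which cells gave the RNA of these genes was not tested. Mgll was most like the endothelial gene Ptprb (0.95), then Masp1 and Nedd4. Fabp5 was most like Anxa4 (0.85), Hilpda like Lima1 (0.86), Pnpla2 like Adipor1 (0.91), Dgat1 like Pigo (0.86) and G0s2 like Ppa2 (0.78). Among the 10 themselves the highest r was 0.82, between the perilipins Plin2 and Plin3, and the lowest was -0.62, between Dgat2 and Lpl.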

How the data were processed

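RNA was sequenced from 57 libraries in 16 groups and 4 sets. The submitters' processing notes name the tools STAR, HOMER and DESeq2 and the build mm10 (GRCm38), without versions. Per the file headers, the authors' deposited raw counts are HOMER analyzeRepeats counts over the exons of each RefSeq transcript, and the deposited TPM come from the same program. Handling of strand and of reads with several matches is not given in the sources used here. The tables hold 40458 transcripts, and each of the 24941 symbols was represented by its transcript of highest total count (7630 symbols had more than 1). For 2 of the 10 genes the highest TPM would pick another transcript. All value columns were matched to samples, so 0 were left unused.

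The 4 sets were fitted separately on the counts in edgeR 4.0.16 (R 4.3.3), with filterByExpr (count minimum 10, total 15), TMM scaling and the quasi-likelihood test, 14407 genes in the population set, 14552 in the time course (14470 for the slope on log2 weeks), 11480 in the LXR set and 12682 in whole liver. All groups of a set shared the estimate of spread. The SE of an edgeR difference was worked back from the test, as the absolute log2 difference over the square root of the F statistic. The threshold was an adjusted p of 0.05 (Benjamini-Hochberg over all genes tested). No replicate pair looked like 1 library deposited more than once, since chi-square per degree of freedom was 5.03 to 79.9 over 140 pairs. Depth is given with the results, and counts near 0 are imprecise.

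The genes and lists were chosen with earlier results of these data known. Genes of the wider lists were named when called, in order of the size of the log2 change, at most 3 in each direction, and likeness took the 3 genes with the highest Pearson r. Alternatives were DESeq2 1.42.0, its size factors in edgeR, no filter, limma 3.58.1 on log2(TPM + 1) and log2(TPM + 0.1), the transcript with the highest TPM, the replicate number as a block, the compared groups alone, a slope on weeks, and leaving out each library. Motifs were searched in RefSeq promoter sequences with Python 3.11.15 and pandas 2.3.3, and plots were made with matplotlib 3.10.9. The fitting steps were tested on simulated data.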

Additional observations from a re-analysis of the deposited data

Results flagged for a closer look

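Only week 30 Kupffer cells (n = 4) and DTR-negative whole livers (n = 10) were of a group size tested for a single far sample. Of these 20 groups of libraries by gene 1 held such a sample, where chance gives about 1 in 20. The 12 DTR-positive livers were not tested in this way. G0s2 was at 194.6 CPM in DTR-negative replicate 5, far from the other 9 of its group.

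Time points differed for 4 genes by the slope per doubling of the weeks on the diet (edgeR, log2 scale). The slopes were 0.18 for Plin3, -0.42 for Dgat2, 0.32 for Lpl and 0.54 for Fabp5, the last not called with the replicate number as a block (adjusted p = 0.067).

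The diet effect differed between the population set and the time course in the joint fit for 3 genes. Against week 20 the difference was -1.32 for Plin2, -1.92 for Hilpda and -1.75 for Pnpla2, and against week 30 it was -1.27 for Plin2.

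For 3 genes all NASH diet libraries of the population set lay on one side of their controls and all libraries of a time point on the other side of week 0. This holds for Hilpda, whose log2 difference from week 0 was 1.81 at week 1, 0.48 at week 4, 0.78 at week 10, 1.15 at week 20 and 0.89 at week 30, against -0.78 in the population set. It holds for Pnpla2 at 0.88 at week 20 and 0.74 at week 30, against -0.89. It also holds for Lpl at -0.41 at week 1 and -0.68 at week 4, against 1.75. At each week 1 or 2 of the 10 genes showed this, beside 5.08% (week 30) to 10.4% (week 1) of the 14046 genes in both fits. The joint fit tested the differences at weeks 20 and 30, and those at weeks 1, 4 and 10 were not tested.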

How the results depend on the processing

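Of 48 calls on the 10 genes, 25 held under every alternative run and 23 were lost under at least 1, and 0 of the 665 alternative values of called genes reversed. The number of the 10 genes called, without each library in turn, was 2 to 4 for NASH diet against healthy Kupffer cells (5 with all libraries), 1 to 3 for Ly6C-low macrophages against KN-RM (4) and 0 to 3 against Ly6C-high macrophages (4). It was 2 to 4 at week 1 (4) and 2 to 5 at week 10 (4). At week 10 it was 2 when the compared groups were fitted alone. At week 20 limma gave 3 on log2(TPM + 1) and 4 on log2(TPM + 0.1), against 7 by edgeR. Groups with 1 library left were assumed to vary like the others. The cause was not tested, beyond the smaller number of samples in these fits.

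With the replicate number as a block, 7 of the 10 genes were called in NASH diet against healthy Kupffer cells and 6 at week 30, and in the slope 3, with Fabp5 at 0.49 (adjusted p = 0.067). Same-numbered libraries had a median correlation of deviations of 0.06 in the population set and 0.03 in the time course. It was 0.04 in the LXR set and 0.12 in whole liver. Single pairs reached 0.49 in the population set, so these medians cannot decide whether the numbers pair the samples. Alb was higher in replicate 2 than in replicate 1 of every sorted liver population there.

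Counts over all genes moved by more than 1.5 times in several comparisons. For KN-RM against NASH diet Kupffer cells edgeR called 77, DESeq2 259, the fit without a filter 257, the block 152, limma on log2(TPM + 0.1) 36, the groups alone 48, and single libraries left out 10 to 33. For the LXR groups edgeR called 24, DESeq2 225, the fit without a filter 273, the block 112, limma 2 and 0, and single libraries left out 0 to 81. For the slope the block gave 1741 and the fit without week 1 replicate 1 gave 1967, against 3203. The groups alone gave 1492 of 2325 at week 1 and 1228 of 2786 at week 10. Leaving out single libraries lowered the count to between 846 and 1685 from 2988 for NASH diet against healthy Kupffer cells, to 2851 from 4804 for Ly6C-low macrophages against KN-RM without KN-RM replicate 1, and to 1619 or 1633 from 3702 for Ly6C-low against Ly6C-high macrophages. It lowered the count to 1068 or 1484 at week 1, to between 538 and 732 from 1243 at week 4, and to 1597 or 1802 at week 10.

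On log2(TPM + 1) the median of all genes shifted by -0.23 (week 30) to 0.24 (Ly6C-low macrophages against KN-RM), which moved the split of calls. Calls in NASH diet against healthy Kupffer cells were 967 higher and 2852 lower there, against 1611 and 1377 by edgeR. For Ly6C-low macrophages against KN-RM they were 4652 and 1501 (2202 and 2602), and for KN-RM against blood 3473 and 5127 (4897 and 3812). At weeks 1, 4 and 10 they were 898 and 2223 (1371 and 954), 608 and 1216 (808 and 435), and 1326 and 1451 (1675 and 1111). At weeks 20 and 30 they were 1332 and 4306 (2646 and 2410) and 1149 and 4685 (2255 and 2182). The LXR libraries, at most 5.09 in units of 1000000 counts, limit Fabp5 and G0s2, which were not tested there.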
